A study of Mus musculus with 7 samples.

Results

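The sites described here are cytosines inside CpG islands that lie in exons, introns or intergenic DNA and not in promoters, as the deposited annotation of the study's methylation tables classes them. They numbered 292 of 18189 sites in the table of the rescue experiment and 286 of 21989 sites in the table of the Mof knockdown, or 393 of 27896 sites over both tables. Of the regions they form, 3 in the rescue table lay under 1000 bp from a start in a set of RefSeq promoters. They were both Sall1 regions and Epha10, and 2 regions of the knockdown table lay as near. The set lacked the starts of some genes, so both counts are lower bounds. Its nearest start to the Dusp4 region, for example, was 118357 bp away, while the listed start was 1014 bp away. The rule of choice used the annotation alone and no methylation value, but it was set with earlier results of these data known. Introns held 150 of the sites in the rescue table, exons 110 and intergenic DNA 32, and in the knockdown table the numbers were 119, 128 and 39. All stood at least 1003 bp from the start of transcription listed for them, with a median of 2885.5 bp in the rescue table and 3107.5 bp in the knockdown table.

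CpG islands are stretches of DNA dense in CpG dinucleotides, and most of those that overlap promoters stay free of methylation. Islands within gene bodies or between genes carry methylation more often. UHRF1 binds the hemimethylated DNA that replication leaves behind and recruits the methyltransferase DNMT1, which copies the methylation to the new strand. MOF is a lysine acetyltransferase, and the title of the series asks what its acetylation of UHRF1 does to methylation across the genome.

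Reduced representation bisulfite sequencing, which reads methylation at restriction fragments rich in CpG, was applied to J1 mouse embryonic stem cells grown in serum with leukemia inhibitory factor. The 3KR rescue (1 library) came from Uhrf1-/- cells transfected with flag-myc-tagged human UHRF1 in which 3 lysines were replaced by arginine, K667R, K668R and K670R. The WT rescue (1 library) came from Uhrf1-/- cells with tagged wild-type human UHRF1. Both rescue lines were single colonies picked after hygromycin selection, so each is 1 clone, and the tagged human protein stands in for the mouse one. The Uhrf1-/- cells gave 2 libraries. The Mof knockdown is a stable knockdown in J1 cells (1 library), and the wild-type J1 cells gave 2 libraries that serve both tables. The groups with 1 library have no replicate, so no SD is given for them.

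The sites formed 45 regions in the rescue table and 46 in the knockdown table, where a region is a run of such sites with gaps of at most 500 bp. Among the 45, 37 regions held at least 2 sites, the median region had 6 sites, and the median span of those with at least 2 sites was 81 bp. The tables share 185 of the sites. All sites together had 257860 to 668870 reads per library of the rescue table and 299507 in the Mof knockdown. The reads over the island sites away from promoters summed to 3783 in the 3KR rescue, 5510 in the WT rescue, 4983 and 4057 in the Uhrf1-/- libraries and 4181 and 4586 in the wild-type libraries, with medians of 12 to 16.5 reads per site. The Mof knockdown had 2757 reads and a median of 8 per site, so that 1 read moved a site at median depth by 12.5 percentage points. Neighbouring sites of a region had nearly the same depth, as sites on the same fragments do, so the reads of a region are not independent. Intervals given for regions therefore use the mean reads per site. Total reads were even at 59.2% to 82.2% of these sites, depending on the library. If both reads of a pair were counted, which was not tested, fragments number fewer than reads, so the read minimum, the intervals and the step of 1 read overstate the precision. The tables hold no expression, so the identity of the cells was not checked.

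In Uhrf1-/- cells the island sites away from promoters held far less methylation than in wild type, in both libraries. The site mean was 2.56% and 2.10% in the Uhrf1-/- libraries, against 13.5% and 15.5% in the wild-type libraries. The group means were 2.33% ± 0.32 and 14.5% ± 1.4 (SD, n = 2 each), a difference of -12.2 points that left 16.1% of the wild-type mean. The groups did not overlap. An exact permutation test of 2 libraries against 2 cannot give a two-sided p below 0.333, which is the value it gave.

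The WT rescue had a mean of 15.2%, against 2.33% in Uhrf1-/- cells, and was 0.671 points above the wild-type mean, compared with an SD of 1.4 between the wild-type libraries. That last difference was 3.37 points with reads pooled over sites, -2.19 points with 1 value per region and -0.32 points without wild-type library 1, so its direction depended on these choices. The 3KR rescue had a mean of 2.77%, against 15.2% in the WT rescue. It was 0.438 points above the Uhrf1-/- mean, and the Uhrf1-/- libraries themselves differed by about that much (SD 0.324). At sites with at least 10 reads in every library the difference turned to -0.60 points. Set against the Uhrf1-/- loss, the WT rescue had regained 105.5% by the site means and the 3KR rescue 3.60%. With 1 library per rescue these differences have no replicate check.

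Promoter islands and island shores had the same order of groups at other levels. Island sites in promoters averaged 1.13% in the 3KR rescue, 1.93% in the WT rescue, 0.812% in Uhrf1-/- cells and 1.81% in wild type. Island shores away from promoters, the flanks of islands, averaged 9.92%, 36.2%, 5.83% and 34.7% in the same order. The wild-type mean of the island sites away from promoters thus lay between these classes. The difference between Uhrf1-/- and wild type was 11.2 points larger at them than at promoter islands, and the exact permutation test of that contrast again gave its smallest p, 0.333. Promoter islands could lose no more than their wild-type 1.81%, so this contrast does not compare the share lost.

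**Figure D1:**
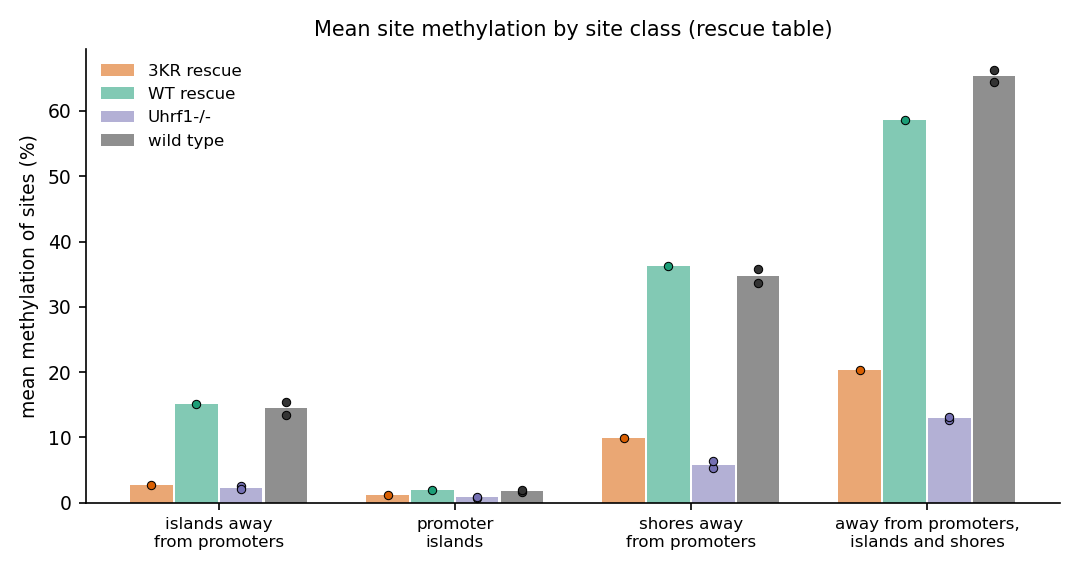
Mean methylation of sites (percent, vertical axis) in 4 site classes of the rescue table; bars are group means, points are libraries, and the groups run from the 3KR rescue to wild type. Island sites away from promoters stand at 15.2% in the WT rescue and 14.5% in wild type, with the 3KR rescue at 2.77% and Uhrf1-/- at 2.33%.

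The low mean hid a split between a few methylated islands and many unmethylated sites. No methylated read was seen at 87.7% of the sites in the 3KR rescue, 67.1% in the WT rescue, 83.9% in Uhrf1-/- cells and 67.8% in wild type. Sites above 80% made up 7.19% in the WT rescue and 6.68% in wild type, and there were 0 such sites in the 3KR rescue and in Uhrf1-/- cells. Of the 45 regions, 11 averaged at least 20% in wild type, 6 at least 50% and 22 under 5%. The 6 most methylated regions held 58.8% and 59.0% of the methylated reads of the wild-type libraries, from 9.88% and 13.7% of the reads. They were Whrn, Camta1, Zfp821 and the regions of a single site in Trpm4, Prdm16 and Elfn2.

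To compare site classes at a like starting level, sites with at least 20% methylation in wild-type library 1 were taken, and their levels read from the other libraries. The 62 island sites away from promoters averaged 7.41% in the 3KR rescue, 51.6% in the WT rescue, 4.80% and 4.86% in the Uhrf1-/- libraries and 54.8% in wild-type library 2. That left 8.81% of the level of wild-type library 2 in Uhrf1-/- cells and 13.5% in the 3KR rescue. The 35 promoter island sites chosen in the same way kept a like share in Uhrf1-/- cells, 8.49%, and 36.2% in the 3KR rescue. The 428 promoter shore sites kept 13.3% and 25.9%. The 714 shore sites away from promoters kept 14.8% in Uhrf1-/- cells and 27.0% in the 3KR rescue. The 8854 sites away from promoters, islands and shores kept 19% and 30.7%. With sites chosen by wild-type library 2 and set against library 1, the island sites away from promoters kept 9.80% in Uhrf1-/- cells and 16.7% in the 3KR rescue, and promoter islands 10.7% and 31.4%. The WT rescue then lay 2.56 points above wild-type library 1, compared with -3.17 points against wild-type library 2 here. These are descriptions, since neighbouring sites share fragments and the classes still differed in starting level.

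Single sites were called where edgeR's quasi-likelihood test gave a Benjamini-Hochberg adjusted p under 0.05 and the difference was at least 20 points. Of the 115 island sites away from promoters with at least 10 reads in the 4 libraries, 21 were lower in Uhrf1-/- than in wild type, or 18.3%, against 32.3% of all sites tested. By edgeR 0 were higher, against 0.0% of all sites, and limma on the levels also called 0 higher. At an unadjusted p under 0.05, 24 sites were lower, or 20.9%, against 43.6% of all sites, and 1 was higher, or 0.870%, against 0.326%. Over regions, 6 of 37 were lower, or 16.2%, against 61.8% of all regions, and 0 were higher, against 0.0%. At an unadjusted p under 0.05, 13 regions were lower, or 35.1%, against 66.8% of all regions, and 1 was higher, or 2.70%, against 0.27%. The site calls leaned on every library, and the region calls on both Uhrf1-/- libraries: without Uhrf1-/- library 1, Uhrf1-/- library 2, wild-type library 1 or wild-type library 2 the site test called 0, 7, 0 and 0, and the region test 0, 0, 6 and 5. The median region difference was -2.35 points, against -47.8 points over all regions. By the q-value under 0.05 and the 20-point difference of the authors' deposited table, 61 of the 292 sites were lower in Uhrf1-/- than in wild type, against 61.3% of all sites, and 0 were higher, against 0.269%. For the 3KR rescue against wild type the authors' deposited table gives 51 of the 292 sites as lower, against 53.5% of all sites. It gives 5 of the 292 as higher, against 0.935%. For the WT rescue against wild type the authors' deposited table gives 12 of the 292 sites as lower, against 13.5% of all sites. It gives 15 of the 292 as higher, against 6.54%.

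Dense methylation ran through most of an island region in Whrn, the gene of the hair-cell scaffold protein whirlin, at chr4:63416306-63416447 (mm10, exon and intron). Its 11 sites had 9.09% methylated reads in the 3KR rescue, 78.3% in the WT rescue, 1.37% and 8.26% in the Uhrf1-/- libraries and 81.9% and 81.7% in the wild-type libraries. The Uhrf1-/- and wild-type libraries stood far apart, and the region fell by 77.0 points in Uhrf1-/- cells (edgeR adjusted p = 4.2e-07). With reads divided by the number of sites, the edgeR adjusted p was 0.0017. The rescue values rest on about 6 reads per site: the 95% Wilson interval at the mean depth ran from 1.03% to 49.1% for the 3KR rescue and from 37.7% to 95.6% for the WT rescue. The first site of the region had no methylated read in any library. Of the 11 sites, 7 were fully methylated in the WT rescue and 5 in each wild-type library, and 0 were in the 3KR rescue or either Uhrf1-/- library, where no site passed 33.3%.

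Camta1, which encodes a calmodulin-binding transcription activator, held 12 sites in an intron at chr4:151485920-151486067, a median of 109529.5 bp from the listed start. They had 0% methylated reads in the 3KR rescue, 80.8% in the WT rescue, 2.98% and 6.25% in the Uhrf1-/- libraries and 64.0% and 74.5% in the wild-type libraries. The region fell by 64.6 points in Uhrf1-/- cells (edgeR adjusted p = 1.1e-06, and 0.0012 with reads divided by the number of sites). Here the depth was better, with 19.4 reads per site in the 3KR rescue, whose count of 0 allows up to 15.0% at its deepest site. The WT rescue had 41.3 reads per site and an interval of 66.5% to 90.0%, above each value of the 3KR rescue and the Uhrf1-/- libraries. As in Whrn, the outermost site was at 0% in the 3KR rescue, the WT rescue and both Uhrf1-/- libraries, and at 0% and 7.14% in the wild-type libraries.

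**Figure D2:**
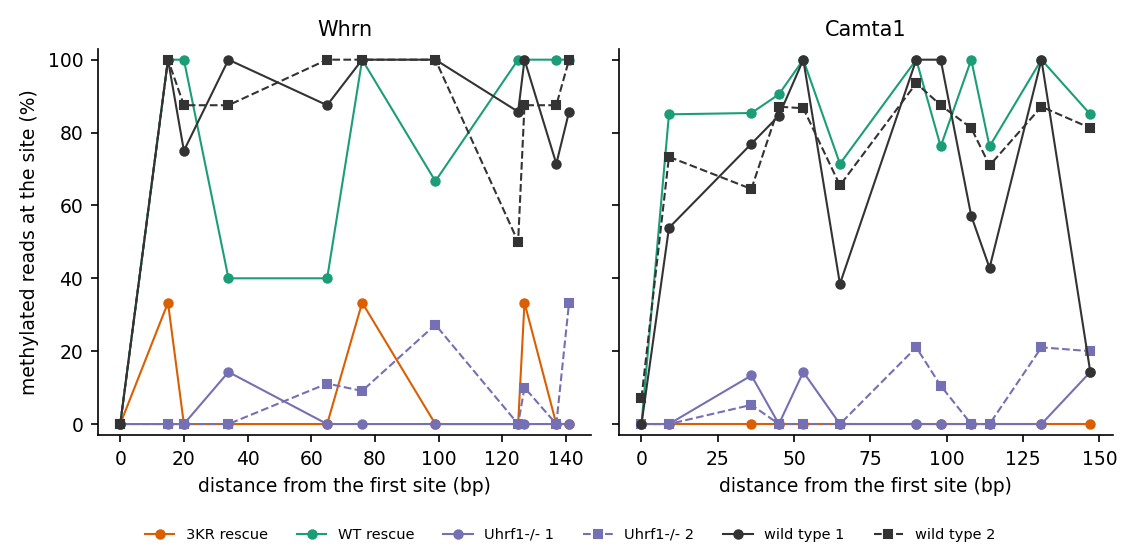
Methylated reads at each site (percent) against the distance from the first site (bp) in the Whrn and Camta1 islands, with 1 line per library. Wild type and the WT rescue run high at nearly all sites after the first, and the 3KR rescue and both Uhrf1-/- libraries stay at 33.3% or below.

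Zfp821, a zinc finger gene, held 5 exonic sites at chr8:109724370-109724418. They had 13.3% methylated reads in the 3KR rescue, 62.4% in the WT rescue, 0% and 6.25% in the Uhrf1-/- libraries and 65.5% and 100% in the wild-type libraries. One site of the 5 carried all methylated reads of the 3KR rescue, at 66.7% of its 6 reads. The wild-type libraries differed from each other, and wild-type library 2 had 6 reads at each site. The region fell by 79.6 points in Uhrf1-/- cells (edgeR adjusted p = 2.0e-05, and 0.0055 with reads divided by the number of sites).

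An exonic region at chr8:70331483-70331598 is shared by Gdf1, a growth factor of left-right patterning, Cers1, a ceramide synthase, and Upf1, a helicase of nonsense-mediated decay. Its 5 sites had 8.84% methylated reads in the 3KR rescue, 38.5% in the WT rescue, 0.82% and 0% in the Uhrf1-/- libraries and 25.0% and 26.8% in the wild-type libraries. It was deep in wild type, with 31 to 37 reads per site, and the WT rescue stood above both wild-type libraries. It fell by 25.5 points in Uhrf1-/- cells (edgeR adjusted p = 0.00031, and 0.0058 with reads divided by the number of sites).

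F2r, the gene of a thrombin receptor, held 11 exonic sites at chr13:95604127-95604270. They had 4.57% methylated reads in the 3KR rescue, 8.64% in the WT rescue, 0% and 1.72% in the Uhrf1-/- libraries and 15.9% and 26.6% in the wild-type libraries. The fall of 20.4 points in Uhrf1-/- cells was just past the 20-point limit (edgeR adjusted p = 5.0e-05). With reads divided by the number of sites, the edgeR adjusted p was 0.0064. The WT rescue stayed below both wild-type libraries.

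Nectin1, which encodes a cell adhesion molecule, held 7 exonic sites at chr9:43803797-43803858. They had 0% methylated reads in the 3KR rescue, 20% in the WT rescue, 10.7% and 0% in the Uhrf1-/- libraries and 43.9% and 21.4% in the wild-type libraries. The fall of 27.3 points was the weakest of the 6 calls (edgeR adjusted p = 0.035) and was lost when reads were divided by the number of sites (adjusted p = 0.14, with a range of 0.029 to 0.22 over all alternatives). The rescues and the wild-type libraries had at most 8 reads per site.

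A further 4 regions had an edgeR adjusted p under 0.05 with a difference of under 20 points. Gm39323, a predicted gene, held 11 intronic sites at chr9:44020574-44020718. They had 6.62% methylated reads in the 3KR rescue, 65.6% in the WT rescue, 11.4% and 2.63% in the Uhrf1-/- libraries and 21.2% and 31.7% in the wild-type libraries. The WT rescue, with an interval of 46.2% to 80.9%, stood above both wild-type libraries there. The others were Panx2, a pannexin channel gene, Triobp, an actin-binding protein gene, and Wnt3, a secreted ligand gene, with differences of -13.8, -13.5 and -13.8 points. Wnt3 had 2.50% methylated reads in the 3KR rescue, 0% in the WT rescue, 0% and 2.41% in the Uhrf1-/- libraries and 10% and 20% in the wild-type libraries.

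The 8 regions of a single site were not in the region test. Of these, 5 had no methylated read in any library. The site in Trpm4, a cation channel gene, had 11.1% in the 3KR rescue, 70.0% in the WT rescue, 0% in both Uhrf1-/- libraries and 50% and 74.1% in the wild-type libraries. The site in Prdm16, a transcriptional regulator of brown fat and blood stem cells, had 0% in the 3KR rescue, 44.4% in the WT rescue, 22.2% and 0% in the Uhrf1-/- libraries and 62.5% and 77.8% in the wild-type libraries, from 6 to 9 reads. The site in Elfn2 had 0% in the 3KR rescue and 0% in the WT rescue, from 6 and 10 reads, 18.2% and 25.0% in the Uhrf1-/- libraries and 75.0% and 89.5% in the wild-type libraries. It was the only region of the rescue table with a Uhrf1-/- mean above 20%, at 21.6%. The 8 promoter shore sites of Elfn2 were spread over chr15:78671652-78711243, a span that holds the island site. They averaged 18.3% in the 3KR rescue and 80% in the WT rescue. The Uhrf1-/- libraries averaged 7.73% and 14.0% there, and the wild-type libraries 84.3% and 87.5%. The WT rescue was thus high on average over these sites and had no methylated read at the island site.

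**Figure D3:**
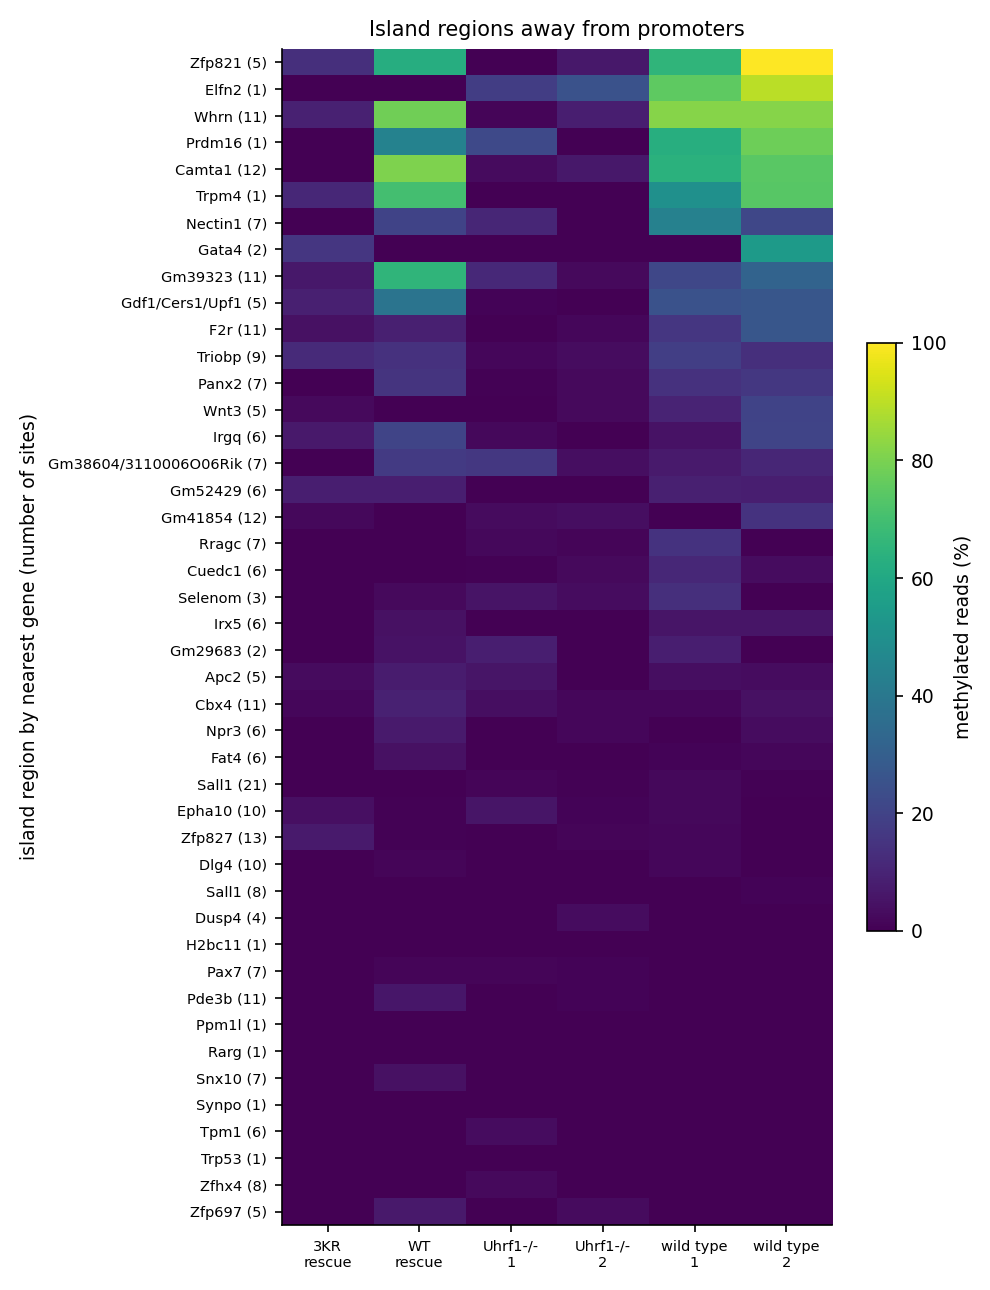
Methylated reads (percent, colour) in 44 of the 45 island regions away from promoters of the rescue table, with 1 row per region, ordered by wild-type mean, and 1 column per library. The 6 rows at 50% or more in wild type are brighter in wild type than in the 3KR rescue and Uhrf1-/-. The WT rescue is also brighter than these there, except at Elfn2, where it is dark. Gata4 and F2r, at lower wild-type levels, are dark in the WT rescue too.

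The regions at 50% or more in wild type held 10.5% and 35.6% of the methylated reads of the Uhrf1-/- libraries, from 8.01% and 10.6% of the reads, so it was concentrated in them in library 2 more than in library 1. Among regions of at least 3 sites the highest Uhrf1-/- means included 9.95% at Gm38604 and 3110006O06Rik, 7.02% at Gm39323, 5.36% at Nectin1, 4.82% at Whrn, 4.61% at Camta1, 4.32% at Selenom and 3.36% at Epha10. The first of them had 16.3% and 3.64% methylated reads in the Uhrf1-/- libraries, against 7.14% and 10.7% in the wild-type libraries, so the groups overlapped. No region of the 3KR rescue passed 15.8%, the value of the 2 Gata4 sites.

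For the rescues, differences of at least 20 points were counted at sites that had 10 or more reads in all the libraries of a comparison. The WT rescue was higher than Uhrf1-/- at 27 of 153 sites, or 17.6%, against 61.0% of all sites, and lower at 1, against 0.122%. The 3KR rescue was lower than the WT rescue at 33 of 152, or 21.7%, against 57.0% of all sites, and higher at 4, against 0.966%. The 3KR rescue was higher than Uhrf1-/- at 5 of 139, or 3.60%, against 15.8% of all sites, and lower at 0, against 2.8%. The WT rescue was lower than wild type at 4 of 137, against 17.0% of all sites, and higher at 7, against 8.56%. Without wild-type library 1 the WT rescue was lower than wild type at 13 sites and higher at 11, and without wild-type library 2 it was lower at 7 and higher at 13, with more sites past the read minimum in both cases. Uhrf1-/- library 1 was lower than library 2 at 5 of 200 sites, against 8.41% of all sites, and higher at 2, against 7.55%. Wild-type library 1 was lower than library 2 at 8 of 151 sites, or 5.30%, against 13.3% of all sites, and higher at 4, or 2.65%, against 9.07%. The shares for the WT rescue against Uhrf1-/- and for the 3KR rescue against the WT rescue were thus larger than those between libraries of 1 group, and the shares for the WT rescue against wild type were of their size.

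Among regions of at least 3 sites, the WT rescue exceeded Uhrf1-/- by at least 20 points in Camta1 (76.2 points), Whrn (73.5), Zfp821 (59.3), Gm39323 (58.6) and the Gdf1, Cers1 and Upf1 region (38.1). The 3KR rescue lay at least 20 points below the WT rescue in the same 5 regions, by -80.8, -69.2, -49.1, -59.0 and -29.7 points, and in Nectin1, by -20 points. Panx2 had 0% in the 3KR rescue, 15.1% in the WT rescue, 0.76% and 2.37% in the Uhrf1-/- libraries and 14.4% and 16.3% in the wild-type libraries. Counted over the 37 regions of 2 or more sites, the WT rescue exceeded Uhrf1-/- by 20 points in 5, against 71.1% of all regions, and was lower in 0, against 0.0675%. In the 3KR rescue 6 were lower than in the WT rescue, against 65.3%, and 0 higher, against 0.405%. The counts for the 3KR rescue go by size alone, with 1 library on each side. With the spread taken from the replicated groups, edgeR called the 5 regions for the WT rescue, against 42.1% of all regions, with 0 lower, against 0.0%. At single sites it called 5 higher in the WT rescue than in Uhrf1-/-, against 3.05% of all sites. These calls compare 1 clone with Uhrf1-/- cells. Between the 3KR rescue and Uhrf1-/- 0 of these regions were 20 points higher, against 13.8% of all regions, and 0 lower, against 1.37%, and the median over these 37 regions was -0.40 points, against 2.32 points over all regions. Against wild type, the WT rescue was at least 20 points higher in 1 region, Gm39323 (39.1 points), against 7.72% of all regions. It was lower in 2, Zfp821 (-20.4 points) and the 2 sites of Gata4 (-27.3 points), against 17.4%.

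Wild-type methylation was concentrated at distance from starts of transcription. Sites 1 to 2 kb from the listed start averaged 1.64% in the 3KR rescue, 5.63% in the WT rescue, 1.85% in Uhrf1-/- cells and 4.43% in wild type (121 sites), and sites at 2 to 5 kb averaged 1.95%, 7.73%, 1.30% and 4.95% (45 sites). At 5 to 20 kb the means were 5.72%, 23.1%, 2.33% and 29.6% in the same order (72 sites), and beyond 20 kb 2.05%, 32.1%, 4.25% and 24.8% (54 sites). Of the 18 regions at 5 kb or more, 8 averaged at least 20% in wild type, compared with 2 of 19 regions under 2 kb. Over the 37 regions of at least 2 sites Spearman's rho between wild-type level and distance was 0.450, given as a description, since all points share the same libraries. Whrn, F2r and Zfp821 lie in the third distance class, and Camta1 and Gm39323 in the last. By annotation, exonic sites averaged 3.94% in the 3KR rescue, 18.2% in the WT rescue, 3.06% in Uhrf1-/- cells and 19% in wild type, intronic sites 1.99%, 15.6%, 1.88% and 12.9%, and intergenic sites 2.40%, 2.55%, 1.90% and 5.86%.

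**Figure D4:**
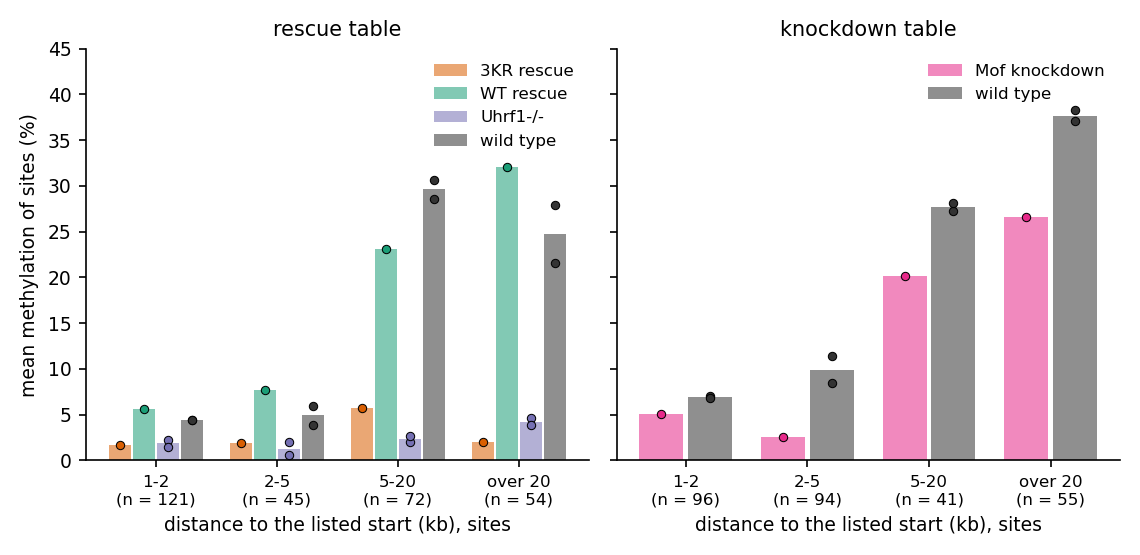
Mean methylation of island sites away from promoters (percent) by distance to the listed start (kb), in the rescue table (left) and the knockdown table (right); bars are group means, points are libraries, and n is the number of sites. Wild type stands at 4.43% nearest the start and 24.8% beyond 20 kb in the rescue table, and Uhrf1-/- at 1.85% and 4.25%.

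Islands of the listed developmental transcription factors reached a wild-type mean of at most 27.3%, at Gata4. Of 182 developmental transcription factors listed, 4 had measured regions in the rescue table, and 0 of these were called. Irx5 and Pax7 stayed at 5.71% or below in all libraries. The 2 intronic sites of Gata4, a regulator of endoderm and heart, had 15.8% in the 3KR rescue, 0% in the WT rescue, 0% in both Uhrf1-/- libraries and 0% and 54.5% in the wild-type libraries, so the wild-type value rests on library 2, with 5 and 6 reads at the sites. Sall1, a zinc finger regulator with regions of 21 and 8 sites, had at most 2.02% in any library. Imprinted genes, germline genes, clustered protocadherins, pluripotency genes and the methylation machinery had 0 measured regions among these islands.

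In the Mof knockdown the island sites away from promoters averaged 10.6%, against 16.2% and 17.4% in the wild-type libraries, a wild-type mean of 16.8% ± 0.9 (SD, n = 2). The difference was -6.23 points, which left 62.9% of the wild-type mean. Promoter islands averaged 2.19% in the Mof knockdown and 2.39% in wild type, and shores away from promoters 27.5% and 34.8%, or 79.0% of wild type. At the 70 sites with at least 20% in wild-type library 1, the Mof knockdown had 32.9% and wild-type library 2 had 54.5%, so 60.3% was kept, while the like share was 79.0% at 921 shore sites, 74.3% at 585 promoter shore sites, 83.0% at 45 promoter island sites and 83.0% at 10926 sites away from promoters, islands and shores. With sites chosen by wild-type library 2 instead, the Mof knockdown had 33.3% and wild-type library 1 had 46.6% at 81 island sites away from promoters, so 71.6% was kept, and the difference was -13.3 points, compared with -21.6 points. The like share was then 83.9% at 991 shore sites and 76.9% at 636 promoter shore sites. By distance to the listed start, the means were 5.13% in the Mof knockdown and 6.91% in wild type at 1 to 2 kb (96 sites), 2.54% and 9.90% at 2 to 5 kb (94 sites), 20.2% and 27.7% at 5 to 20 kb (41 sites) and 26.6% and 37.7% beyond 20 kb (55 sites). Exonic sites averaged 11.1% in the Mof knockdown and 19.9% in wild type, intronic sites 11.2% and 16.5%, and intergenic sites 6.72% and 7.46%. The intergenic mean of the Mof knockdown lay between those of the wild-type libraries, which were 6.34% and 8.59%. These values come from 1 knockdown library, and whether the classes differ was not tested.

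Sites at least 20 points lower in the Mof knockdown than in wild type numbered 9 of 89, or 10.1%, against 21.2% of all sites, and 1 was higher, against 4.34%. Between the wild-type libraries of the same table, 11 of 147 sites were lower in library 1, against 13.9% of all sites, and 5 were higher, against 8.91%. Without wild-type library 1 the knockdown was lower at 18 sites and higher at 2, and without wild-type library 2 it was lower at 9 and higher at 2. By the authors' deposited table, 17 of 286 sites were lower, against 12.3% of all sites, and 3 were higher, against 1.98%. Of 42 regions with at least 2 sites, 27 were lower in the knockdown, 5 higher and 10 equal, with a median of -1.76 points, against -5.89 points over all regions. At least 20 points lower were 5 regions, against 23.6% of all regions, and higher was 1, against 2.53%.

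The falls of at least 20 points lay in the regions given here, and the other lower regions fell by less. Plec, the gene of the cytoskeletal linker plectin, held 8 exonic sites at chr15:76177236-76177346 with 27.7% methylated reads in the Mof knockdown, against 81.7% and 82.7% in the wild-type libraries. Matn4, which encodes the matrix protein matrilin-4, held 8 exonic sites at chr2:164393375-164393457 with 8.33% in the knockdown, against 48.4% and 68.3% in wild type. In each the knockdown lay below both wild-type libraries, with about 6 reads per site and intervals of 7.01% to 66.0% for Plec and 0.876% to 48.3% for Matn4. Prkar1b, a regulatory subunit of protein kinase A, had 69.7% in the knockdown at chr5:139051572-139051662, against 93.0% and 88.4% in wild type. Gm39323 had 4.20% in the knockdown, against 21.2% and 31.7% in wild type. Among smaller regions, the single Prdm16 site had 0% in the knockdown, from 6 reads, a count of 0 that allows up to 50%. It had 62.5% and 77.8% in wild type, from 8 and 9 reads. The 2 sites of Crb2, a gene of cell polarity, had 31.0% in the knockdown, against 55% and 50% in wild type.

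Camta1 had 57.8% in the Mof knockdown, against 64.0% and 74.5% in the wild-type libraries, a difference of -11.4 points. The Gdf1, Cers1 and Upf1 region had 15.2% in the knockdown, against 25.0% and 26.8% in wild type. Hs3st3a1, a heparan sulfate sulfotransferase gene, had 42.1% in the knockdown, against 44.1% and 51.2% in wild type. F2r went the other way, with 49.2% in the knockdown, against 15.9% and 26.6% in wild type, but it had at most 6 reads per site in the knockdown and an interval of 18.2% to 80.9%. With the spread of the replicated wild type, edgeR's lowest adjusted p among these regions was 0.64, so 0 were called lower or higher, against 0.0% of all regions. At an unadjusted p under 0.05, 3 regions were lower, against 5.09%, and 0 higher, against 0.669%. In the knockdown table Hoxa13 had 17.0% in the Mof knockdown, against 4.80% and 26.7% in the wild-type libraries, and the listed transcription factors Foxd3 and Pax7 had at most 2.90% in any library.

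**Figure D5:**
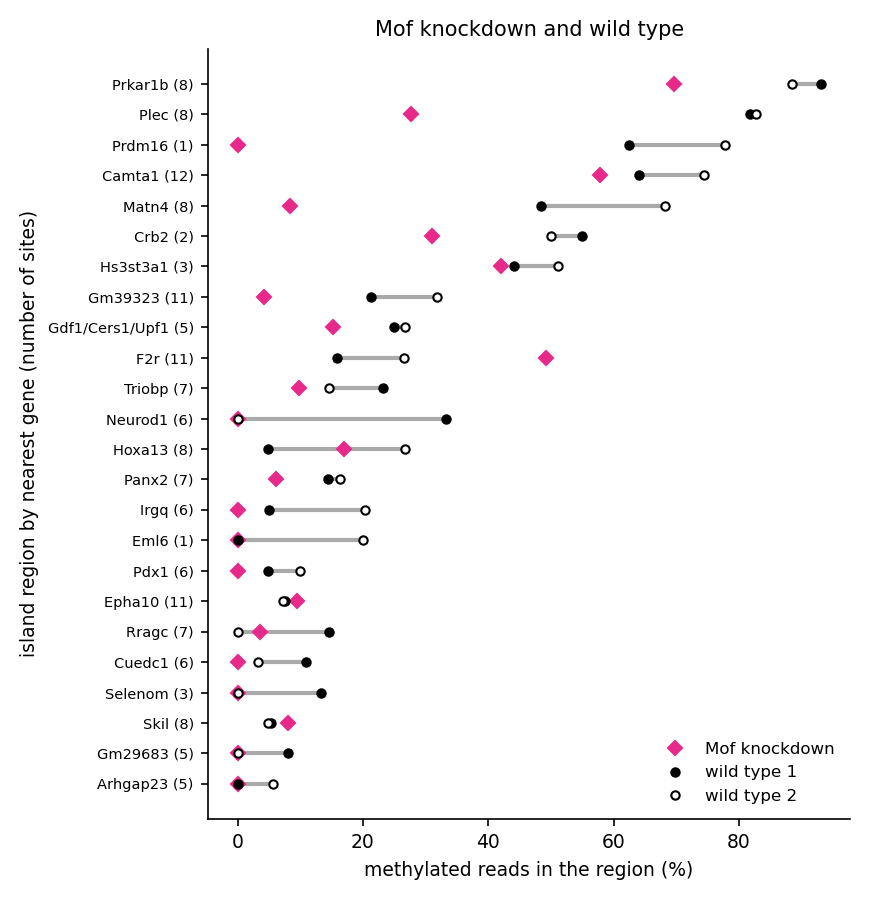
Methylated reads (percent) in 24 island regions away from promoters of the knockdown table that reach 5% in at least 1 library; diamonds are the Mof knockdown, circles the wild-type libraries, joined by a grey line. Plec and Matn4 lie far below both wild-type libraries in the knockdown, at 27.7% and 8.33%, and F2r lies above them at 49.2%.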

How the data were processed

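BSMAP 2.73 (a bisulfite read aligner), Trim Galore, cutadapt and mouse build mm10 are named, per the submitters' processing notes, with no order or settings. The methylation caller is not given in these sources. Per the file headers, the authors deposited total, methylated and unmethylated read counts per site, the methylated fraction, and a p-value, a q-value and a percent difference against wild type, with gene and island annotation. Levels were recomputed from the counts. The lowest depth at any member site was 5 reads. RefSeq genes (GRCm38.p6) gave neighbouring genes.

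Libraries were grouped by the sample titles; nothing in the labels ties them to separate cultures, so p-values cover only the spread between these libraries. The WT rescue column name carries a trailing digit of unknown meaning. Site and region tests used edgeR 4.0.16 (limma 3.58.1, R 4.3.3) on methylated and unmethylated counts over the whole table. They used Benjamini-Hochberg adjustment over all sites or regions, at least 10 reads and, for regions, at least 2 sites. The tests were also run on simulated counts drawn independently for each site or region. That run held no shared fragments, so it does not cover dependence between neighbouring sites. Region values are summed reads. Wilson 95% intervals and the limit that a count of 0 allows (3 reads) cover counting error only. Python 3.11.15 with numpy 2.4.6, pandas 2.3.3, scipy 1.17.1 and matplotlib 3.10.9 was used for the rest.

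Named regions are the called ones for Uhrf1-/- against wild type, for other comparisons the 6 largest differences of at least 20 points in each direction among regions with at least 3 sites, the 8 highest in Uhrf1-/- and members of the gene lists. Trpm4, Elfn2, Sall1, Panx2, Triobp, Wnt3 and regions given for comparison were named after their values were seen. The sites, regions and lists were chosen with earlier results of these data known. One region is not reported by name here and not drawn in the plots by region.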

Additional observations from a re-analysis of the deposited data

How the results depend on the processing

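The difference between Uhrf1-/- and wild type in the site mean stayed between -13.1 and -11.2 points when 1 library was left out, and that of the Mof knockdown between -6.87 and -5.59. The WT rescue minus Uhrf1-/- was 16.1 points with reads pooled over sites, 11.6 at sites with at least 10 reads in every library and 11.2 with 1 value per region (12.6 to 13.1 without 1 library). The 3KR rescue minus the WT rescue was -15.5 points pooled and -11.0 per region. The 3KR rescue minus Uhrf1-/- turned to -0.60 at sites with at least 10 reads in every library, and ran from 0.208 to 0.667 without 1 library. The WT rescue minus wild type was 3.37 pooled, -2.19 per region and -0.32 to 1.66 without 1 library. Site calls in Uhrf1-/- numbered 1 at 20 reads, 9 with the replicate block, and 0 to 7 without 1 library. Region calls numbered 0 to 6 without 1 library, 6 with the replicate block, 5 with reads divided by sites and 6 with read counts halved; the last pair of settings was chosen after seeing the data. Same-numbered libraries did not deviate together (correlation 0.0032 over all sites), so the pairing by number was not used, and the cause of these shifts was not tested.

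With at least 5 reads the counts by size were 69 for the WT rescue above Uhrf1-/-, 67 for the 3KR rescue below the WT rescue, 14 for the 3KR rescue above Uhrf1-/-, 21 lower and 28 higher for the WT rescue against wild type, and 43 lower and 11 higher for the Mof knockdown. At 30 points the 3KR rescue was above Uhrf1-/- at 1, the WT rescue below wild type at 2, and the Mof knockdown lower at 4 and higher at 0. With edgeR and the spread of the replicated groups, 5 sites were called for the WT rescue above Uhrf1-/- and 0 for each other count. Without 1 library the counts were 33 to 39 for the WT rescue above Uhrf1-/-, 6 for the 3KR rescue above Uhrf1-/-, 7 to 13 lower and 11 to 13 higher for the WT rescue against wild type, and 9 to 18 lower and 2 higher for the Mof knockdown. With classes from wild-type library 2, methylated sites stood at -37.1 points in Uhrf1-/- against wild type, compared with -50.0, at -34.3 compared with -47.4 in the 3KR rescue, at -13.3 compared with -21.6 in the Mof knockdown, and at 2.56 compared with -3.17 in the WT rescue. At a median of 8 to 16.5 reads per site, differences of a few points at single sites were not detectable.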

Other observations

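Methylated read counts of the deposited tables were more often even than odd. Among partly methylated island sites away from promoters, the methylated count was even at 94.4% of sites in the 3KR rescue, 76.2% in the WT rescue, 80% and 70.5% in the Uhrf1-/- libraries and 90.2% and 87.2% in the wild-type libraries, and at 84.3% in the Mof knockdown. Across the whole rescue table the shares were 65.6% to 77.6%. Total reads were even at 59.2% to 82.2% of the island sites away from promoters. Counting both reads of a pair would lower the effective depth below the read counts, and this was not tested. With read counts halved, the region test for Uhrf1-/- against wild type made 6 calls, as with the counts as deposited.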
